A study of Mus musculus with 13 samples.

Results

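The genes described here are 10 components of interleukin-6 (IL-6) family signalling in mouse liver: the cytokines Il6, Osm (oncostatin M) and Lif (leukaemia inhibitory factor), the receptor chains Il6ra, Il6st, Osmr and Lifr, the transcription factor Stat3, and 2 genes that respond to it, Socs3 and Bcl3. They were chosen by name from the table's 22048 genes, and all 10 are in it. The table holds whole-liver RNA-seq read counts of 13 libraries, 6 of control livers, 4 of livers depleted of hepatic stellate cells, the vitamin A-storing pericytes of the sinusoids, and 3 taken 72 h after partial hepatectomy (an operation that takes out liver lobes and leaves a remnant to regrow), from mice whose stellate cells had not been depleted. Controls 1, 2 and 6, depleted liver 3 and hepatectomised livers 1 and 2 are male and the rest female. How the cells were depleted, and the strain, genotype and age of the mice, are not given in the sources used here. The labels give each library its own sample and sex but no animal identifier, so p-values measure the spread between these samples.

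Cytokines of the IL-6 family act through the shared receptor chain gp130, the product of Il6st. IL-6 binds its own receptor chain Il6ra, which can also be shed into the blood, whereas oncostatin M and LIF bring gp130 together with Osmr or Lifr. The assembled receptor activates Janus kinases, which phosphorylate STAT3, and phosphorylated STAT3 moves to the nucleus and switches on genes such as Socs3, whose product binds gp130 and shuts the signal down. In hepatocytes this pathway drives the acute phase response, the secretion of haptoglobin, fibrinogen and other plasma proteins, and it takes part in the early stage of liver regeneration. STAT3 is controlled mainly by phosphorylation, which counts of mRNA do not measure.

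STAT proteins bind palindromic DNA of the form TTCNNNGAA, which reads alike on both strands. The promoter windows of RefSeq on GRCm38.p6, 250 bases before to 50 after a gene's start, were searched for it because Socs3 and the acute phase genes carry much of the result below. Of the 9 members with a window, 1 held a match, Socs3, and 8.3% of all 32851 windows held one. Counting any window of a gene, 9.55% of all 27025 genes had a match. The share was 4 of 9 among acute phase genes listed as induced by IL-6 alone. It was 1 of 7 among those listed as induced by IL-1 with IL-6 and 2 of 13 among early genes known to respond to STAT3. Transducers had 2 of 15, other ligands and receptors of the family 1 of 8 and NF-kB genes 1 of 12. The Socs3 match starts 154 bases before the gene start. By GENCODE M21 it lies in an intron of a longer Socs3 transcript. Of the 4 among genes listed as induced by IL-6 alone, those of Fga, Fgb and Itih4 are shown, and they lie outside annotated genes. Steap4, an iron reductase gene known to respond to STAT3, holds its match 116 bases before its start, within an exon of the predicted gene Gm30835. The matches are shown with up to 10 bases on each side, 5′ to 3′ on the gene's strand and with the match in capitals. A match is a run of letters and not a shown binding site.
Socs3, chr11:117969502-117969530, minus strand: gaaaccagccTTCTTAGAAgggagggggg
Fga, chr3:83025909-83025937, plus strand: aggcccccatTTCCTGGAAtgtagattcc
Fgb, chr3:83050007-83050035, minus strand: gactcaatgaTTCGAGGAAccccctgtgt
Itih4, chr14:30886415-30886443, plus strand: aaacctgcatTTCCGAGAActtgcaccag
Steap4, chr5:7960346-7960374, plus strand: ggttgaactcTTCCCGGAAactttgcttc

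Library totals ran from 35360991 to 51008737 counts, and 3 counts correspond to 0.0588 to 0.0848 CPM (counts scaled to the size of the library). All 10 stellate cell markers tested were lower in depleted livers than in controls, with summed levels of 10.4 to 71.8 CPM against 299 to 777, whereas 0 of 10 differed between hepatectomised and control livers by edgeR, DESeq2 or limma-voom, and 0 had an unadjusted edgeR p under 0.05. Summed hepatocyte markers were 66478 to 173502 CPM over all livers, and 0 of 7 differed in either comparison with control by edgeR or limma-voom (adjusted p under 0.05). DESeq2 called 0 in depleted and 1 in hepatectomised livers, and the unadjusted edgeR p was under 0.05 for 1 and 3 of them. Other cell types moved with the groups. Summed neutrophil markers were 0.78 to 4.89 CPM in controls, with Ly6g at 0 in all 6, 164 to 355 in depleted livers, with all 9 markers detected in each, and 18.5 to 34.1 in hepatectomised livers, with Mpo at 0 in the second. Summed Kupffer cell markers, those of the liver's resident macrophages, were 75.3 to 597, 953 to 2101 and 83.2 to 825 CPM in the same order. Summed monocyte markers were 88 to 218, 479 to 886 and 111 to 256 CPM, and those of T and NK cells 2.27 to 4.07, 34 to 86.4 and 2.74 to 5.17 CPM. As mean log2 CPM, however, the Kupffer cell markers overlapped, at 5.67 in depleted liver 1 and 5.72 in control 3. Of these 8 markers 5 were higher in depleted livers than in controls. In bulk tissue, more cells of a type and more RNA per cell cannot be told apart. Some libraries stood apart from their groups: control 6 had Kupffer markers of 75.3 CPM where the other controls had 409 to 597, hepatectomised liver 2 had 83.2 where the others had 334 and 825, and depleted liver 4 kept stellate markers at 71.8 CPM where the others had 10.4 to 14.7. Fits without each of them are among the alternatives. Summed portal fibroblast and mesothelium markers were 2.19 to 6.7 CPM in controls and 13.1 to 22.4 in depleted livers. They were 15.3, 12.7 and 45.4 CPM in hepatectomised livers. Of the 5 markers, 1 was higher and 1 lower in depleted livers than in controls. After hepatectomy 4 of 5 were higher than in controls, as were all 4 proliferation markers. Summed proliferation markers were 2.01 to 32.8 CPM in controls, 36.7 to 96.2 in depleted livers, where 2 of 4 were higher, and 49.4 to 328 in hepatectomised livers.

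Of the 10 members, 8 passed the filter on low counts and were tested (Il6 and Lif did not), in 1 model of group and sex over all 13 livers with Benjamini-Hochberg adjustment over 13831 genes. Osm passed only through the depleted livers, where it is high, so it is described apart from the other 7. Of these 7, depleted livers differed from controls in 4: Osmr, Stat3 and Socs3 were higher and Lifr was lower. In that comparison 33.9% of all genes tested were called, 18.9% higher and 15% lower. Hepatectomised livers differed from controls in 5 of them, Il6ra, Osmr, Stat3, Socs3 and Bcl3, all higher, in a comparison that called 8.42% of all genes, 6.06% higher and 2.36% lower. Between depleted and hepatectomised livers 1 member differed, Socs3, which was lower in depleted livers. That comparison called 23.4% of all genes, 13.3% higher and 10.1% lower. The median log2 fold change of the 7 was 0.69 in depleted livers against control, 1.20 in hepatectomised livers against control and -0.52 in depleted against hepatectomised livers, where the medians over all genes were -0.03, -0.02 and -0.05. The comparisons with control share the 6 control livers.

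**Figure D1:**
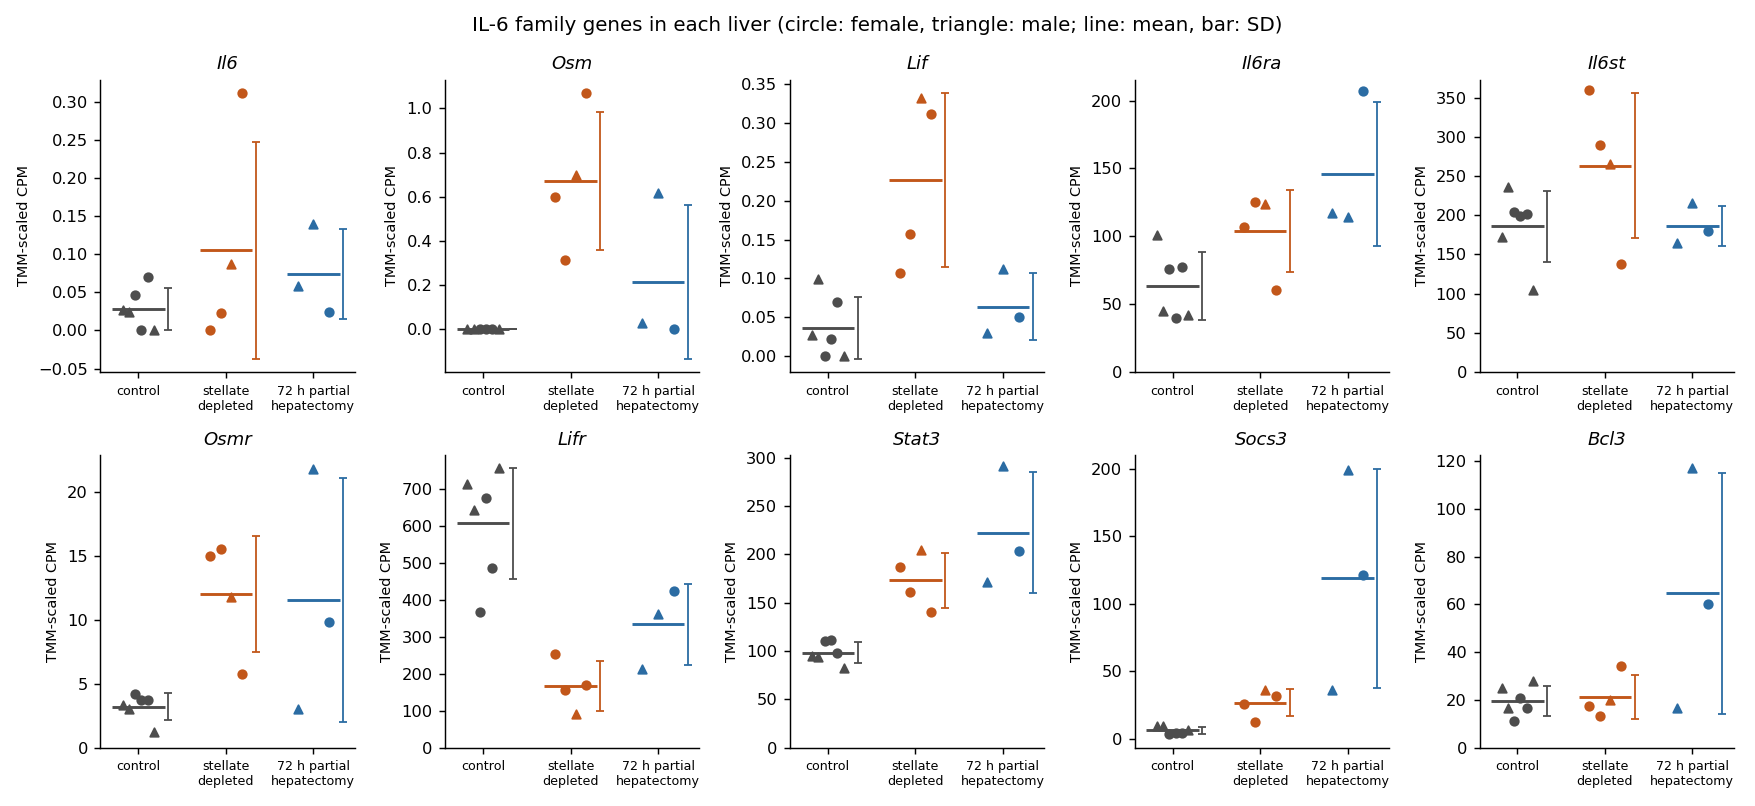
Level of each of the 10 genes in every liver as TMM-scaled CPM on a linear axis, by group; circles are female and triangles male livers, lines are group means and bars SD (6 control, 4 depleted, 3 hepatectomised livers). Stat3 and Socs3 lie above all controls in every depleted and hepatectomised liver, and Lifr lies below all controls in every depleted liver.

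The cytokines were at or near the limit of detection. Osm (GRCm38 chr11:4236420-4241026, with Lif at chr11:4257557-4272514), which myeloid cells make in response to inflammatory stimuli, had 0 counts in all 6 controls. The depleted livers had 28, 14, 40 and 48 Osm counts (0.314 to 1.07 CPM), and the hepatectomised livers 1, 22 and 0. All 4 depleted livers were thus above every control, while only the second hepatectomised liver was above 3 counts. Against a floor of 3 counts over the 6 controls together (0.0125 CPM), mean Osm was at least 53.8-fold higher in depleted livers. In the fit without the low-count filter the edgeR adjusted p was 0.00422. The same fit gave 0.0996 for hepatectomised livers, whose 23 counts came almost all from the second. Between depleted and hepatectomised livers it gave 0.274. Fitted with the filter, the log2 difference between those groups was 2.50 over all livers and 5.43 without hepatectomised liver 2. These values stand as a description. In depleted livers Osm was high together with the neutrophil, Kupffer cell and monocyte markers given above. The hepatectomised liver with 22 Osm counts had the lowest Kupffer cell and monocyte markers of its group (83.2 and 111 CPM) and neutrophil markers of 28.7 CPM. The part of these cells in the result was not tested.

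Il6, the founding cytokine of the family, summed to 7 counts over the 6 controls, 20 over the depleted livers and 8 over the hepatectomised livers. Of the 20 counts in depleted livers 14 came from the fourth, while the first had 0. The highest level in any liver was 0.312 CPM, and a difference between the groups was not detectable at this depth. Fitted without the low-count filter, Il6 had an edgeR adjusted p of 0.25 in depleted and 0.589 in hepatectomised livers against control. Lif had 5, 7, 19 and 14 counts in depleted livers, 0 to 4 in controls and 1, 4 and 2 in hepatectomised livers. Scaled to library size, the lowest depleted liver (0.107 CPM) lay above every control but below the second hepatectomised liver (0.112 CPM), and the gene failed the filter. Without it, Lif was higher in depleted livers than in controls (2.64 ± 0.76 SE, edgeR adjusted p = 0.0178), from 45 counts against 9. That fit gave Lif an edgeR adjusted p of 0.747 for hepatectomised livers against control. For depleted against hepatectomised livers it gave 0.161.

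On GRCm38, Lifr (chr15:7090614-7197489, plus strand) and Osmr (chr15:6813577-6874969, minus strand) lie on the same chromosome, while Il6st lies at chr13:112464070-112510086 and Il6ra at chr3:89864059-89913196. Of these receptor chains Lifr fell and Osmr rose in depleted livers. Lifr was the most abundant member in control liver, with 368 CPM in the lowest control, a median of 659 and 757 in the highest. Depleted livers had 254, 155, 90.8 and 169 CPM, each below every control. Their mean was 167 ± 67.3 CPM (SD, n = 4) against 607 ± 149 in controls (SD, n = 6), a 3.78-fold lower level (log2 fold change -1.92 ± 0.33 SE, edgeR adjusted p = 0.000724). Hepatectomised livers had 213, 362 and 425 CPM. The first and second of these lay below all controls, the third within them, and the change did not pass the test (log2 fold change -0.87 ± 0.33 SE, edgeR adjusted p = 0.126). Scaled to library size alone it did pass (-1.08, edgeR adjusted p = 0.0443). The direct difference between depleted and hepatectomised livers was close to the threshold (-1.05 ± 0.36 SE, edgeR adjusted p = 0.0519) and passed it in 10 of 23 alternative analyses, so the size of the fall was not separated between the groups. The hepatocyte markers had 0 edgeR calls in both comparisons with control, and DESeq2 called 1 after hepatectomy. The part of hepatocytes in the Lifr values was not tested.

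Osmr, the signalling chain for oncostatin M, was rare in control liver, at 1.26 to 4.23 CPM with a median of 3.52. Depleted livers had 15, 15.5, 11.8 and 5.72 CPM, all above the highest control. Osmr rose 3.63-fold in them (log2 fold change 1.86 ± 0.47 SE, edgeR adjusted p = 0.00909). Without depleted liver 3 the value was 1.77 with an adjusted p of 0.0535, and with the replicate number as a block it was 1.56 with an adjusted p of 0.0578. Hepatectomised livers had 3, 21.8 and 9.85 CPM, so the first was at the control level and the other two were above it. The mean change was 3.78-fold (1.92 ± 0.52 SE, edgeR adjusted p = 0.0401), but without hepatectomised liver 2, the liver with few Kupffer markers, it was 0.90 on the log2 scale (edgeR adjusted p = 0.303), and with the block 1.30 (edgeR adjusted p = 0.233). The hepatectomy call for Osmr was lost in 14 of 23 alternatives.

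Il6ra, the chain that binds IL-6, had 39.8 CPM in the lowest control, a median of 60.5 and 101 in the highest. Hepatectomised livers had 117, 114 and 207 CPM, all above the highest control. Il6ra was 2.3-fold higher in them (log2 fold change 1.20 ± 0.33 SE, edgeR adjusted p = 0.043). This call was lost in 14 of 23 alternatives, among them the fit without hepatectomised liver 3 (0.83, edgeR adjusted p = 0.251) and the block (0.96, edgeR adjusted p = 0.0856). Depleted livers had 107, 125, 124 and 60.7 CPM. The first 3 of these exceeded every control and the fourth did not, and the group's change was 0.69 ± 0.31 on the log2 scale (SE, edgeR adjusted p = 0.111). It was 0.87 without depleted liver 4 (edgeR adjusted p = 0.0434) and 0.89 without control 1 (edgeR adjusted p = 0.0284).

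Il6st, the shared chain gp130, showed no call. Controls had 104 to 236 CPM with a median of 200, depleted livers 360, 289, 265 and 138, and hepatectomised livers 165, 215 and 180. The first 3 depleted livers lay above all controls and the fourth within them, and the difference from control was 0.48 ± 0.26 on the log2 scale (SE, edgeR adjusted p = 0.173). Without depleted liver 4 it was 0.68 and past the threshold (edgeR adjusted p = 0.0236). After hepatectomy the estimate was 0.03 ± 0.28 (SE, edgeR adjusted p = 0.969, approximate 95% interval -0.53 to 0.58), and its sign turned with the scaling to library size alone.

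Levels of different genes were compared per kilobase of exon. In controls Lifr was highest at 58.8 ± 14.5 CPM per kb (SD, n = 6), followed by Il6st at 16.8 ± 4.04, Stat3 at 10.3 ± 1.12, Bcl3 at 7.9 ± 2.5, Il6ra at 7.35 ± 2.87, Socs3 at 2.12 ± 0.974 and Osmr at 0.265 ± 0.0856. Stat3 and Bcl3, and Bcl3 and Il6ra, did not differ by more than their SD, whereas the other neighbours in that order did. The cytokine genes followed, with means of 0.0116 CPM per kb for Il6, 0.00836 for Lif and 0 for Osm. In depleted livers Il6st led at 23.7 ± 8.35 CPM per kb (SD, n = 4), then Stat3 at 18.2 ± 2.98, Lifr at 16.2 ± 6.51, Il6ra at 12 ± 3.47, Socs3 at 9.19 ± 3.51 and Bcl3 at 8.54 ± 3.65, none of which differed from its neighbour by more than the larger SD, and Osmr followed at 0.991 ± 0.371. In hepatectomised livers Socs3 had the highest mean at 41.1 ± 28.1 CPM per kb (SD, n = 3), ahead of Lifr at 32.2 ± 10.5 and Bcl3 at 25.9 ± 20.2, again within the spread, and Osmr was at 0.952 ± 0.783.

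The per-kilobase ratio of Lifr to Osmr restates the levels of these chains, which pair with gp130, and is not a further test. Which cells the transcripts came from was not tested. The ratio was 102 to 705 in the 6 controls, with 705 in control 6 and at most 250 in the others. The depleted livers had ratios of 19.9, 11.7, 9.04 and 34.7, and the hepatectomised livers 83.1, 19.5 and 50.5. Every control was thus above all livers of the other groups, and Lifr transcripts still outnumbered Osmr transcripts in all 13 livers.

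**Figure D2:**
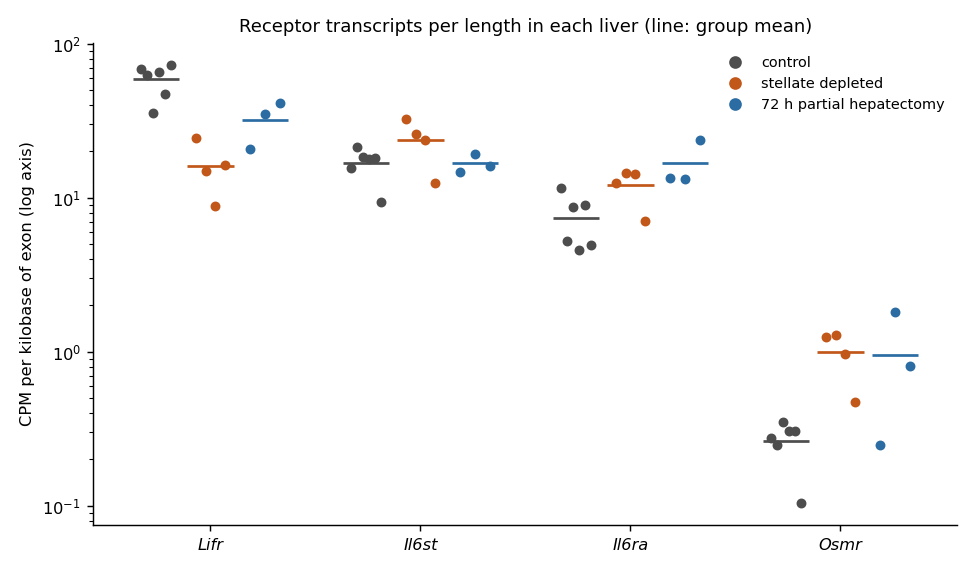
Receptor chain transcripts as CPM per kilobase of exon on a log axis, 1 point per liver with lines at group means. Lifr is lower and Osmr higher in all 4 depleted livers than in any control, while Il6st, and Il6ra in depleted livers, overlap the controls.

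Stat3 itself (GRCm38 chr11:100885098-100939540) had 82.9 to 111 CPM in controls with a median of 96.7. Depleted livers had 187, 161, 205 and 140 CPM, and hepatectomised livers 171, 292 and 204. All 7 lay above the highest control. Stat3 was 1.76-fold higher in depleted livers (log2 fold change 0.81 ± 0.16 SE, edgeR adjusted p = 0.00199) and 2.25-fold higher in hepatectomised livers (1.17 ± 0.18 SE, edgeR adjusted p = 0.00303). Both calls held in all alternatives run, 24 for the first and 23 for the second. The difference between the depleted and hepatectomised livers was -0.35 ± 0.20 (SE, edgeR adjusted p = 0.227, approximate 95% interval -0.75 to 0.04). Of the 9527 exon bases of Stat3, 72 overlap exons of Stat5a, which reads from that stretch could not tell apart unless counted by strand.

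Socs3, the feedback inhibitor (GRCm38 chr11:117966079-117970047), spread widely. Controls had 3.14 to 9.64 CPM with a median of 5.2. Depleted livers had 26, 12.7, 36 and 31.6 CPM, each above every control. Hepatectomised livers had 36.4, 199 and 121 CPM, each above every depleted liver. Socs3 was 5.11-fold higher in depleted livers than in controls (log2 fold change 2.35 ± 0.43 SE, edgeR adjusted p = 0.00119) and 19.6-fold higher in hepatectomised livers (4.29 ± 0.45 SE, edgeR adjusted p = 0.000344), and these calls held in all 24 and 23 alternatives run. The depleted livers were 3.84-fold below the hepatectomised ones (-1.94 ± 0.49 SE, edgeR adjusted p = 0.0143). That direct call was lost in 5 of 23 alternatives: the fit on those groups alone (-2.08, edgeR adjusted p = 0.0539), the block (-1.91, edgeR adjusted p = 0.0939), and the fits without depleted liver 3 (-1.90, edgeR adjusted p = 0.0599), hepatectomised liver 2 (-1.62, edgeR adjusted p = 0.0518) or hepatectomised liver 3 (-1.46, edgeR adjusted p = 0.134).

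Bcl3, an atypical inhibitor-of-NF-kB protein that acts in the nucleus and is induced by STAT3 and NF-kB, had 11 to 28 CPM in controls with a median of 18.7. Depleted livers had 17.3, 13.3, 20 and 34.2 CPM, and the first 3 lay within the controls. The difference was 0.21 ± 0.46 on the log2 scale (SE, edgeR adjusted p = 0.765, approximate 95% interval -0.69 to 1.11), and it was -0.14 without depleted liver 4. Hepatectomised livers had 16.5, 117 and 60.2 CPM, the first within the controls and the others above them. The 3.22-fold higher mean passed the threshold narrowly (1.69 ± 0.47 SE, edgeR adjusted p = 0.045). The call was lost in 16 of 23 alternatives, among them the fit without hepatectomised liver 2 (0.95, edgeR adjusted p = 0.342) and the block (1.89, edgeR adjusted p = 0.139). Depleted minus hepatectomised livers, the Bcl3 difference was -1.48 ± 0.55 (SE, edgeR adjusted p = 0.0715). It passed the threshold in 5 of 23 alternatives.

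**Figure D3:**
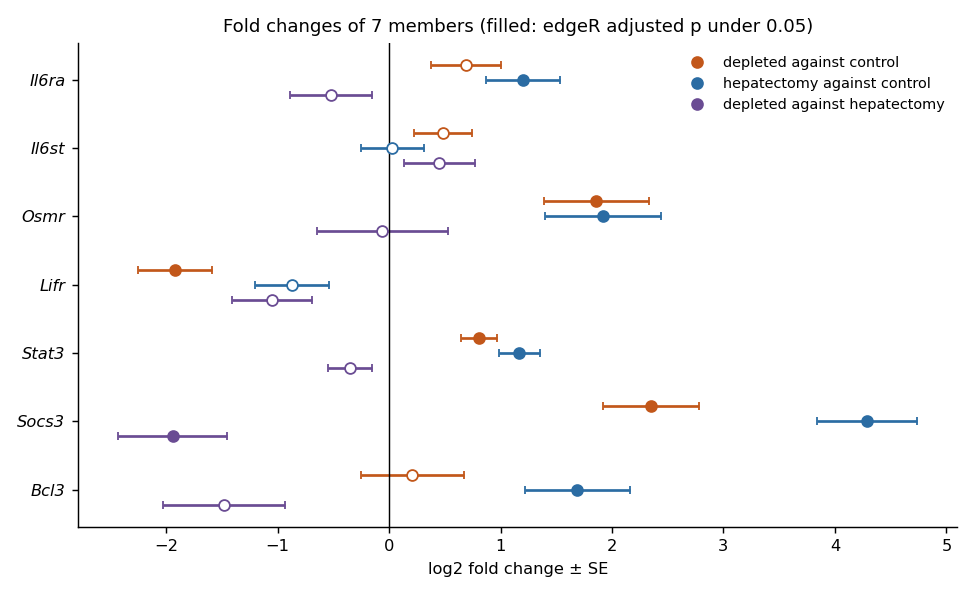
Log2 fold change with its SE for the 7 members that were detected in controls and tested, in the 3 group comparisons; filled points have an edgeR adjusted p under 0.05. Stat3 and Socs3 are filled and to the right of 0 in both comparisons with control, and Lifr is filled only in depleted livers.

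Sex was part of the model. Between male and female livers 0 of the 8 members tested differed, where 1.03% of all genes tested did, and 0 members had an unadjusted edgeR p under 0.05. DESeq2 and limma-voom also called 0. Socs3 came closest (log2 difference, male minus female, 0.70 ± 0.37 SE, edgeR adjusted p = 0.477). Its 3 male controls had 9.64, 9.44 and 6.12 CPM and its 3 female controls 3.14, 4.13 and 4.28 CPM. Male and female controls therefore did not overlap for Socs3, although the difference is not a called one. In female livers alone, 3 depleted against 3 controls, the calls among the members other than Osm were again Lifr, Osmr, Socs3 and Stat3.

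The genes most similar to a member were found as the smallest root mean square difference of gene-centred log2 CPM over the 13 livers, among 10550 genes with a mean log2 CPM of at least 1. For Socs3 these were Cxcl1, a neutrophil-attracting chemokine (0.72), Steap4 (0.73) and Lrg1, a secreted acute phase glycoprotein (0.74). In hepatectomised livers Steap4 had 371, 2794 and 784 CPM, the first within the 221 to 462 of the depleted livers. Mean Steap4 went from 108 CPM in controls to 342 with depletion and 1316 with hepatectomy. For Stat3 they were Susd6 (0.17), Mgat5, a glycosyltransferase (0.22), and Tnfrsf1a, a receptor for tumour necrosis factor (0.22), with means of 81, 126 and 142 CPM in the same order. Lifr was most like Npr2, a natriuretic peptide receptor (0.38), Hsd17b2, a steroid dehydrogenase (0.39), and Syt1 (0.42). Npr2 averaged 59.8, 17.8 and 33.8 CPM. Osmr was most like Tiparp (0.50), Klf6 (0.51) and Snx10 (0.51), Il6ra like Cdip1 (0.28), Rhobtb1 (0.32) and the gluconeogenic enzyme gene Pck1 (0.34), and Il6st like Glg1 (0.17), Itga1 (0.19) and Aff1 (0.20). Bcl3 was most like Ung (0.42), Lrrc8a (0.44) and Mcm7 (0.45), the first and last of which serve DNA repair and replication. The genes nearest to Osm, which is near 0 in most livers, were Hmgb2 (0.76), Ralgds (0.84) and Zbp1 (0.86).

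The other ligands and receptors of the family were counted as a list of 12, of which 8 passed the filter. Il27 passed only through the depleted livers and Cntf only through the hepatectomised livers, so calls in depleted livers are counted over the other 6. In depleted livers 3 were higher and 1 lower than in controls (median log2 fold change 0.52), beside the 18.9% and 15% of all genes. Those with the smallest adjusted p were Clcf1 (2.66 ± 0.38 SE, edgeR adjusted p = 0.000218) and Ebi3 (2.59 ± 0.47, edgeR adjusted p = 0.00103). Il27 and Ebi3 encode the subunits of interleukin-27, a cytokine of activated macrophages and dendritic cells that signals through gp130 and Il27ra. Il27 had 65, 44, 113 and 120 counts in depleted livers, at most 5 in any control and 1, 0 and 0 after hepatectomy. Il27ra rose (1.20 ± 0.38, edgeR adjusted p = 0.0276), and Il11ra1, the receptor of interleukin-11, fell (-0.66 ± 0.22, edgeR adjusted p = 0.0346). After hepatectomy, where edgeR called 8.42% of all genes, 0 of all 8 were called by edgeR or limma-voom and 1 by DESeq2, 2 had an unadjusted edgeR p under 0.05, and the smallest adjusted p was that of Clcf1 (1.31 ± 0.41, edgeR adjusted p = 0.0662). The fitted values of Il27 and Cntf, -2.58 ± 1.02 and 1.14 ± 0.54, stand as a description. In the direct comparison 2 of the 6, Ebi3 and Clcf1, were higher in depleted livers, beside 13.3% of all genes. Ebi3 differed by 2.86 ± 0.64 (edgeR adjusted p = 0.00668, lost in 1 of 23 alternatives). Clcf1 differed by 1.35 ± 0.46 (edgeR adjusted p = 0.0491, lost in 14 of 23 alternatives). In the same livers 5 of 8 Kupffer cell and 5 of 8 monocyte markers were higher than in controls, and their part in these changes was not tested.

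Downstream of the receptors, 17 genes of kinases, other STATs, phosphatases, other SOCS proteins and the proteases that shed Il6ra were tested. In depleted livers 6 were higher and 1 lower than in controls (median 0.30), beside the 33.9% of all genes called there. Without depleted liver 3, the male one, 3 were higher. Ptpn6, a phosphatase of blood cells, rose by 1.78 ± 0.16 SE (edgeR adjusted p = 9.19e-06) and Ptpn1, a phosphatase that acts on Janus kinases, by 1.45 ± 0.18 (edgeR adjusted p = 6.93e-05). Socs1, the interferon-induced relative of Socs3, had 11.5, 4.21, 19.3 and 13.2 CPM in the depleted livers and 0.112 to 0.494 in the controls. The groups did not overlap, and its value was the highest in the list (5.84 ± 0.85, edgeR adjusted p = 0.000269). The lowest belonged to Gab1, an adaptor of gp130 signalling (-0.62 ± 0.16, edgeR adjusted p = 0.00866, lost in 1 of 24 alternatives). After hepatectomy, where 6.06% of all genes were higher and 2.36% lower, 1 was higher, Ptpn1 (0.71 ± 0.20, edgeR adjusted p = 0.0434, lost in 11 of 23 alternatives), and 1 lower, Pias3, a protein that binds STAT3 and restrains it (-1.05 ± 0.18, edgeR adjusted p = 0.00472), with a median of -0.03. Gab1 had the next smallest adjusted p (-0.47 ± 0.17, edgeR adjusted p = 0.111). With library size alone 0 were higher and 4 lower. Socs1 had 0.118, 4.6 and 0.175 CPM in hepatectomised livers, so that only the second stood above the controls (2.23 ± 0.93, edgeR adjusted p = 0.164). In the direct comparison 6 were higher in depleted livers and 0 lower, where 23.4% of all genes were called, led by Ptpn6 (1.72 ± 0.21, edgeR adjusted p = 0.00019), Jak2, a Janus kinase (0.84 ± 0.18, edgeR adjusted p = 0.00611), and Pias1, a relative of Pias3 (0.67 ± 0.17, edgeR adjusted p = 0.0147). Only 2 were higher without depleted liver 3 or without hepatectomised liver 3, and the Pias1 call was lost in both cases. The count was 3 in the fit on those groups alone, 11 with library size alone and 10 without control 6 and depleted liver 4 together. The Jak2 call was lost in 1 of 23 alternatives. Against controls, depleted livers were higher in 8 of 8 neutrophil and 6 of 6 T and NK cell markers tested. The same held for 5 of 8 monocyte and 5 of 8 Kupffer cell markers. The part of these cells in the list's changes was not tested.

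Of 14 transcription factors and early genes known to respond to STAT3, 10 were higher and 0 lower in depleted livers (median 1.45), where 18.9% of all genes were higher. In hepatectomised livers, where 6.06% were, 10 were higher and 0 lower (median 2.07). With the block these counts were 6 and 8. Cebpd was not analysed here. Il1rn, the interleukin-1 receptor antagonist, was called in both (2.89 ± 0.40, edgeR adjusted p = 0.000188 in depleted livers; 3.28 ± 0.42, edgeR adjusted p = 0.00135 after hepatectomy). In depleted livers it was joined at the top by Il4ra, an interleukin-4 receptor chain (1.17 ± 0.17, edgeR adjusted p = 0.000211), and Fos, an immediate early transcription factor (2.66 ± 0.44, edgeR adjusted p = 0.000533). After hepatectomy the others were Cebpb, a transcription factor of acute phase genes (2.18 ± 0.24, edgeR adjusted p = 0.000407), and Junb, an early transcription factor (2.23 ± 0.31, edgeR adjusted p = 0.00205). Timp1, a metalloproteinase inhibitor, had the largest value (5.49 ± 1.01, edgeR adjusted p = 0.00812), with 3.62, 7.19 and 17 CPM after hepatectomy and at most 0.667 in controls. The third of these livers also had the most portal fibroblast and mesothelium markers (45.4 CPM), whose part in the Timp1 value was not tested. The direct comparison, where 13.3% of all genes were higher and 10.1% lower, had 1 higher and 6 lower in depleted livers (median -0.41), among them Bcl2l1, a survival gene (-1.26 ± 0.26, edgeR adjusted p = 0.00388), Junb (-1.44 ± 0.35, edgeR adjusted p = 0.0109) and, as the higher one, Il4ra (0.87 ± 0.21, edgeR adjusted p = 0.00992). Scaling to library size alone changed this split to 2 higher and 3 lower, and the block to 1 and 3. The direct call of Junb was lost in 2 of 23 alternatives and that of Il4ra in 1, while that of Bcl2l1 held in all.

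**Figure D4:**
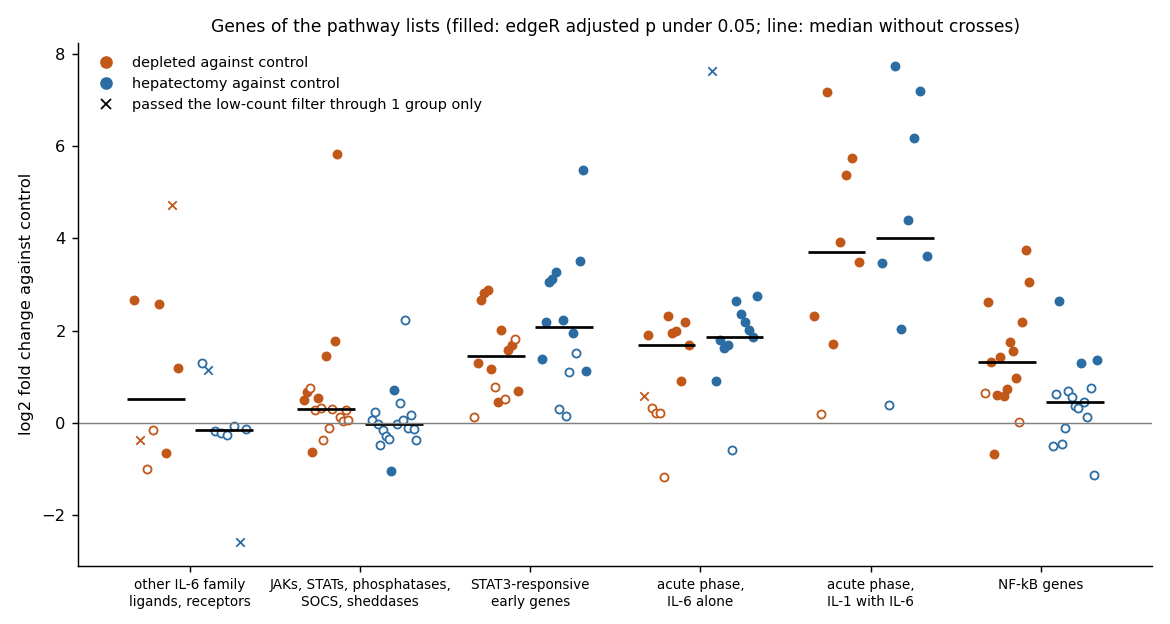
Log2 fold change against control for the tested genes of the 6 pathway lists, 1 point per gene, filled where the edgeR adjusted p is under 0.05, with the list median as a line. Crosses are Il27, Cntf and A2m, which 1 group alone carried past the low-count filter, and they count neither as called nor in the median. STAT3-responsive and acute phase genes lie above 0 in both groups with the exception of Hamp, while the kinases and other transducers, and the NF-kB genes, have most of their filled points in depleted livers.

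Acute phase proteins listed as induced by IL-6 alone, a grouping not tested here, were counted next. Of 12 genes A2m passed the filter only through the hepatectomised livers and is described apart. Of the other 11, 7 were higher in depleted livers (median 1.68), beside 18.9% of all genes, and 10 in hepatectomised livers (median 1.86), beside 6.06%, with 0 lower in either. Hp, which encodes the haemoglobin-binding protein haptoglobin, rose 2.33 ± 0.14 on the log2 scale in depleted livers (edgeR adjusted p = 6.21e-07) and 2.64 ± 0.14 after hepatectomy (edgeR adjusted p = 2.24e-06). Itih3, a hyaluronan-binding plasma protein, rose by 1.99 ± 0.16 (edgeR adjusted p = 5.52e-06) and 2.19 ± 0.17 (edgeR adjusted p = 2.69e-05), and Hpx, which carries haem, by 1.94 ± 0.21 in depleted livers (edgeR adjusted p = 2.75e-05). Hamp, the iron hormone hepcidin, had the lowest value in both and was the one not called after hepatectomy, -1.18 ± 0.47 (edgeR adjusted p = 0.073) and -0.58 ± 0.51 (edgeR adjusted p = 0.523).

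The 3 fibrinogen chains were higher in hepatectomised than in depleted livers. Fga had 3749 to 4726 CPM in controls with 4452, 5144, 5263 and 6061 in the depleted livers, sorted, and 15496, 16907 and 13187 in hepatectomised livers. The depleted livers overlapped the controls and the hepatectomised livers stood far above both. After hepatectomy Fga rose by 1.79 ± 0.13 (edgeR adjusted p = 2.69e-05), Fgb by 1.63 ± 0.14 (edgeR adjusted p = 5e-05) and Fgg by 1.69 ± 0.14 (edgeR adjusted p = 4.51e-05). In depleted livers the 3 values were 0.33 ± 0.12 (edgeR adjusted p = 0.0572), 0.21 ± 0.14 (edgeR adjusted p = 0.256) and 0.22 ± 0.14 (edgeR adjusted p = 0.236), and that of Fga passed the threshold in 5 of 24 alternatives (0.26 to 0.44 over all of them). Their direct differences, depleted minus hepatectomised, were -1.46 ± 0.15 (edgeR adjusted p = 7.41e-05), -1.42 ± 0.16 (edgeR adjusted p = 0.000145) and -1.47 ± 0.17 (edgeR adjusted p = 0.000135), and each held in all 23 alternatives. Hp showed no called difference between those groups (-0.31 ± 0.17 SE, edgeR adjusted p = 0.212), and scaling to library size alone turned its sign (0.01). In all, 5 of the 11 genes were lower and 1 was higher in depleted than in hepatectomised livers, beside 10.1% and 13.3% of all genes. The higher one was Cp, the copper-carrying ceruloplasmin (1.00 ± 0.26, edgeR adjusted p = 0.0158).

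A2m, alpha-2-macroglobulin, an acute phase protein of rodents, was nearly silent in controls (0.06 to 0.268 CPM) and depleted livers (0.0349 to 0.49 CPM). Hepatectomised livers had 81, 62.5 and 2.29 CPM, all above the other 10 livers, with the female liver far below the 2 males. Since only the hepatectomised livers carried it past the filter, these levels stand as a description.

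**Figure D5:**
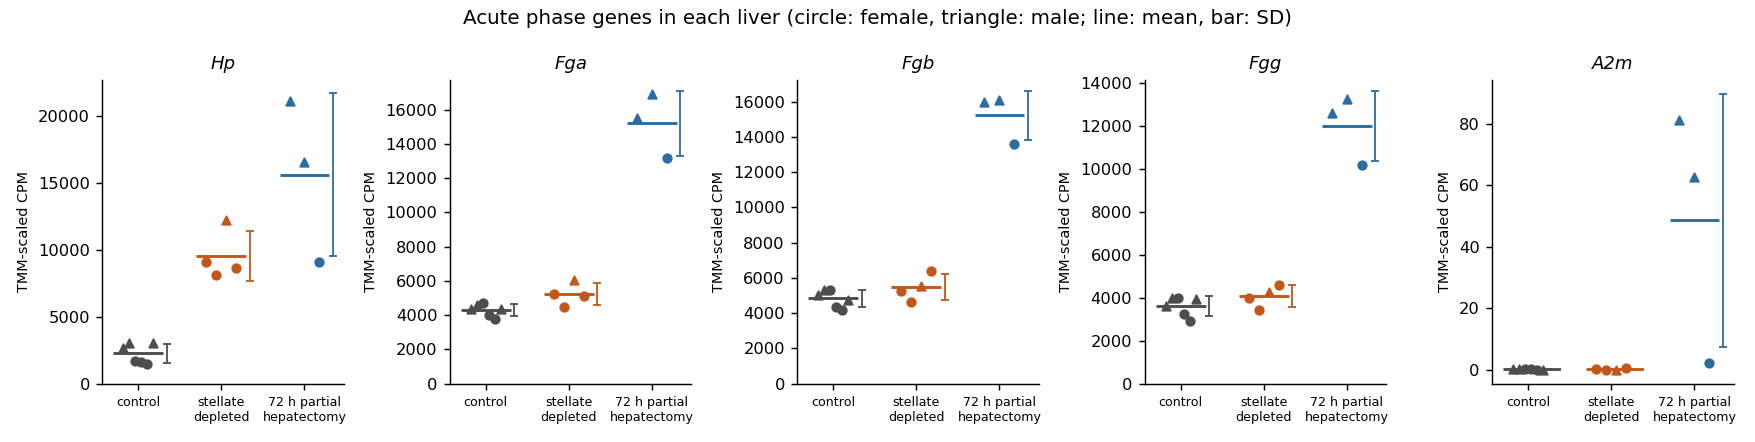
TMM-scaled CPM of Hp, Fga, Fgb, Fgg and A2m in each liver on linear axes; circles are female and triangles male, lines are means and bars SD. Hp is above all controls in both other groups, whereas the fibrinogen genes and A2m overlap the controls in the depleted group and are above them in the 3 hepatectomised livers.

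Of 8 genes listed as induced by IL-1 with IL-6, 7 were higher in depleted livers (median 3.70, beside 18.9% of all genes) and 7 in hepatectomised livers (median 4.01, beside 6.06%), with 0 lower. Crp, the C-reactive protein, was not called in either (0.20 ± 0.13, edgeR adjusted p = 0.266, and 0.39 ± 0.14, edgeR adjusted p = 0.101). Lcn2, an iron-scavenging protein, rose by 7.18 ± 0.53 (edgeR adjusted p = 3.17e-06) and 7.73 ± 0.56 (edgeR adjusted p = 2.69e-05), Orm1 by 1.71 ± 0.18 and 2.03 ± 0.19, and Saa1 by 5.37 ± 0.71 and 6.18 ± 0.70, with reads that its near-identical copy Saa2 may share. Between depleted and hepatectomised livers, where 23.4% of all genes were called, 0 of the 8 passed the threshold in edgeR, DESeq2 or limma-voom, and 0 had an unadjusted edgeR p under 0.05 (median -0.51). The smallest adjusted p were those of Apcs, the pentraxin serum amyloid P (-1.14 ± 0.53, edgeR adjusted p = 0.146), Orm1 (-0.32 ± 0.22, edgeR adjusted p = 0.328) and Saa2 (-1.46 ± 1.02, edgeR adjusted p = 0.333). Apcs and Saa2 each passed the threshold in 1 of 23 alternatives.

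The last list held 15 genes of NF-kB, the transcription factor that IL-1 and tumour necrosis factor activate. In depleted livers 12 were higher and 1 lower than in controls (median 1.33), where 18.9% and 15% of all genes were, led by Tnfaip3, an inhibitor of the pathway (3.05 ± 0.19, edgeR adjusted p = 6.26e-07), Nfkbiz (1.56 ± 0.21, edgeR adjusted p = 0.000136) and Nfkbie (1.75 ± 0.25, edgeR adjusted p = 0.000188). The lower one was Il1rap, the accessory chain of the IL-1 receptor (-0.68 ± 0.21, edgeR adjusted p = 0.0213). After hepatectomy 3 were higher, beside 6.06% of all genes, and 0 lower (median 0.45): Il1r1 (2.65 ± 0.41, edgeR adjusted p = 0.00388), Tnfaip3 (1.36 ± 0.20, edgeR adjusted p = 0.00233) and Nfkbiz (1.31 ± 0.22, edgeR adjusted p = 0.00448). In the direct comparison 6 were higher in depleted livers, beside 13.3% of all genes, and 0 lower (median 0.71), with Tnf at 4.90 ± 0.81 (edgeR adjusted p = 0.00127), Tnfaip3 at 1.69 ± 0.23 (edgeR adjusted p = 0.000402) and Nfkbie at 1.42 ± 0.32 (edgeR adjusted p = 0.00719). The calls of Il1r1 after hepatectomy and of Nfkbie in the direct comparison were each lost in 1 of 23 alternatives. Tnf comes largely from macrophages, whose markers moved with the group, and their part was not tested.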

How the data were processed

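The authors deposited 1 table of raw read counts per gene for 13 whole-liver libraries. Per the labels' protocols, RNA was taken up in TRIzol and made into stranded mRNA libraries. The submitters' processing notes name STAR 2.7.1a, SAMtools 1.15.1, featureCounts 1.6.4 and mm10; settings, strand handling among them, are not given in the sources used here. Of the gene IDs, 21818 matched GENCODE M21 and 230 did not. Genes kept by filterByExpr (13831, at least 0.247 CPM in 3 livers) were tested with edgeR 4.0.16 in R 4.3.3 (TMM scaling, quasi-likelihood F-test, two-sided), with group and sex over all 13 libraries and Benjamini-Hochberg adjustment at 0.05. SE is the absolute log2 fold change divided by the square root of F. CPM are TMM-scaled, except the value of 3 counts. DESeq2 1.42.0 and limma-voom 3.58.1 were alternatives, with other scalings, filters, fits and left-out libraries. Floors cover counting error only, while the approximate 95% intervals come from that SE and hold the spread between libraries. No pair of libraries of the same group matched within sampling noise, and pairs across groups were not examined.

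The members, lists and alternatives were chosen with earlier results of these data known. Named from each list were the 3 genes with the smallest adjusted p per comparison and those its range needs. A gene of the transducer list and a promoter match are not reported here. Other named genes, and the Socs3 levels by sex, were chosen after their values were seen. Sequencing batches are not named in the labels; one aligned with the groups and the groups themselves cannot be told apart.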

Additional observations from a re-analysis of the deposited data

Results flagged for a closer look

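Osmr in control 6 lay apart from the other 5 controls: on the log2 CPM scale its gap to the nearest control was 0.718 of the group's whole range, above Dixon's critical value for 6 livers. That liver had 1.26 CPM where the others had 3.01 to 4.23, and it is also the control with the lowest Kupffer and stellate cell markers. Of 15 groups of values examined in this way 1 was marked, and chance marks about 1 in 20. Without control 6, Osmr in hepatectomised livers against control was 1.70 (edgeR adjusted p = 0.0697).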

How the results depend on the processing

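Stat3 and Socs3 against control, and Lifr in depleted livers, kept their call in every alternative run. Among the members other than Osm, the 4 calls between depleted livers and controls ranged from 3 to 6 over all alternatives, the 6 without depleted liver 4. Without the low-count filter there were 5, with Lif added. For hepatectomised livers against control the 5 calls became 2 in the fit on those groups alone, 3 with limma-voom, 3 without the low-count filter and 2 with the replicate block, and ranged from 2 to 5 when 1 library was left out. Scaling to library size alone gave 4 in that comparison, with Lifr gained and Il6ra and Bcl3 lost. For depleted against hepatectomised livers the 1 call became 3 without the sex term, 2 with DESeq2 size factors, 3 with DESeq2, 3 with limma-voom (2 other than Osm) and 3 without control 6 and depleted liver 4 together (a setting chosen after seeing the data), and ranged from 0 to 3 when 1 library was left out. The causes of these changes were not tested.

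Signs turned only for values not called. With 1 library left out, Bcl3 in depleted livers ran from -0.14 to 0.37 and Bcl2l1 from -0.07 to 0.21; after hepatectomy Ebi3 ran from -1.22 to 0.11, Ptpn6 from -0.18 to 0.23 and Socs1 from -0.68 to 2.94; in depleted against hepatectomised livers Osmr ran from -0.45 to 0.90 and Fos from -0.72 to 0.21. Il6st after hepatectomy was -0.20 with library size alone, -0.26 with the block, -0.10 without control 6 and depleted liver 4 together, and -0.13 to 0.17 with 1 library left out. Ptpn6 was -0.16 with library size alone. Osmr in depleted against hepatectomised livers was 0.06 without sex, 0.12 in the fit on those groups alone, 0.24 with library size alone, 0.26 with limma-voom, 0.26 with the block and 0.23 without the libraries named above, which also gave Bcl3 in depleted livers a value of -0.06. With library size alone Gab1, Hp and Itih3 in that direct comparison were 0.17, 0.01 and 0.13.

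Scaling to library size alone moved the median of all genes to -0.24 after hepatectomy and 0.27 in the direct comparison. Calls were then 626 higher and 1566 lower after hepatectomy, against 838 and 326 with TMM, 3102 and 610 in the direct comparison, against 1837 and 1399, and 2884 and 1471 in depleted livers, against 2614 and 2078. DESeq2 called 1939 genes after hepatectomy where edgeR called 1164, and 410 by sex where edgeR called 142.

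Livers share replicate numbers across groups. After group and sex, deviations of same-numbered livers correlated across genes at 0.07, -0.10, 0.42 and 0.08 between control and depleted livers and at 0.08, -0.19 and -0.05 between control and hepatectomised livers, and at 0.16, 0.04 and 0.27 between depleted and hepatectomised livers. After group alone the values for control and hepatectomised livers, which share sex number by number, were 0.23, 0.11 and 0.52, and 6 of the 7 that involve depleted livers were 0 or below. Since not every pair was over 0.1, the numbers were not taken to pair the livers. With the number as a block 632 genes were called after hepatectomy.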
